A study of Mus musculus with 107 samples.

Results

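Ly6c2, Chil3, Ccr2, Ccl2, Ccl7, Ccl12, Plac8 and Vcan are genes of inflammatory monocytes and of the signal that recruits them, and they are 8 of the 50686 genes measured in the tumors of 12 mouse models. Ly6c2 and Chil3 were chosen by their level, which was higher on average after lenvatinib (LEN) than without treatment (NT) in every model, and the other 6 were added as their companions in this cell type. The contrast of LEN with no treatment is therefore a description for all 8 genes and carries no test of them here. All 8 were found in the table and all 8 passed the filter of a mean TPM (a level scaled to the length of the transcript and to a fixed total per tumor) of at least 1 in each comparison. At the edge of the choice, the smallest LEN minus NT difference among the 12 models was 0.048 for Ly6c2 and 0.058 for Chil3, on the log2(TPM + 1) scale and both in KLN205, and Plac8, just outside it, was higher in 11 models with -0.34 in MBT2.

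The study transplanted mouse cancer cell lines under the skin of immunocompetent mice of matching strain, 7 weeks old at implantation, and sequenced RNA of the whole tumor. The models were BNL 1ME A.7R.1 (hepatocellular carcinoma), Renca and RAG (renal cell carcinoma), CT26.WT (colorectal cancer), 4T1 and EMT6 (breast cancer) in BALB/cAnNCrlCrlj mice, Hepa 1-6 (hepatocellular carcinoma) in C57L/J, MC38 (colorectal cancer) and B16-F10 (melanoma) in C57BL/6NCrl, LL/2 (lung cancer) in C57BL/6JCrl, KLN205 (lung cancer) in DBA/2NCrl and MBT2 (bladder cancer) in C3H/HeNCrl. Base tumors were untreated and taken at about 100 mm3, NT tumors were untreated and taken on day 8, and LEN tumors came from mice given 10 mg/kg of lenvatinib, an inhibitor of VEGF and FGF receptors among other kinases, once daily for 7 days before day 8. Each model had 3 tumors in each of these groups, except for MC38 at Base with 2, which gives 35 Base, 36 NT and 36 LEN tumors. The hosts of BNL 1ME A.7R.1 and Hepa 1-6 were male and all other hosts female, so host sex cannot be told apart from model. Each model is a single transplanted cell line, and the RAG cells had been adapted to growth in mice. Each tumor came from a mouse of its own, so the p-values measure the spread between these tumors.

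Inflammatory monocytes arise in the bone marrow, carry high Ly6C and CCR2 at their surface, and leave the marrow toward tissues that release CCR2 ligands. In tumors they differentiate into macrophages and dendritic cells, and as they do so they lose Ly6C. Ly6c2 encodes the Ly6C2 antigen that defines the subset, Chil3 the secreted chitinase-like protein Ym1 made by monocytes and alternatively activated macrophages, and Plac8 a small cysteine-rich protein of immune cells. Ccr2 is the chemokine receptor, Ccl2, Ccl7 and Ccl12 are its ligands, and Vcan encodes versican, a hyaluronan-binding proteoglycan of the matrix that is made by monocytes, fibroblasts and some cancer cells.

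The genes lie on 6 chromosomes of the GRCm38 build, and all 8 are protein-coding. Ly6c2 is at chr15:75108158-75111970 and Chil3 at chr3:106147554-106167564, both on the minus strand. The 3 ligand genes lie on the plus strand, Ccl2 at chr11:82035571-82037453, Ccl7 at chr11:82045712-82047525 and Ccl12 at chr11:82101845-82103400. Ccr2 is at chr9:124101950-124113557 on the plus strand, Plac8 at chr5:100553725-100572245 and Vcan at chr13:89655312-89742509, both on the minus strand.

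Ly6c2 and Chil3 each have a near copy beside them, and the first 150 coding bases of each pair, read from GENCODE M21 transcripts on GRCm38, are shown because reads of such stretches can be shared out between the copies. Capitals mark the bases at which the copies differ.
Ly6c2: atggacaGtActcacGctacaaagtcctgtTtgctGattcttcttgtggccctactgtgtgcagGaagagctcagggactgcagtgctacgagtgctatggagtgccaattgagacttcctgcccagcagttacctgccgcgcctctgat
Ly6c1: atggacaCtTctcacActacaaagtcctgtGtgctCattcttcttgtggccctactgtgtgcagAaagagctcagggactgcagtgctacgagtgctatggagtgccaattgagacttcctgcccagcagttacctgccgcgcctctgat
Chil3: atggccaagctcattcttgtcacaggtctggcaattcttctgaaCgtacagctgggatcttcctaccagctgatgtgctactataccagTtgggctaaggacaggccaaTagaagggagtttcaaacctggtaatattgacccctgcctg
Chil4: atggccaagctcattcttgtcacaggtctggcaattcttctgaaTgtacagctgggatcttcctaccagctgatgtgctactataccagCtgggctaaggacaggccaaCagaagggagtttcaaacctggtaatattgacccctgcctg
The copies differed at 6 of these bases for Ly6c2 and Ly6c1 and at 3 for Chil3 and Chil4. Over the whole coding sequence, Ly6c2 and Ly6c1 shared 384 of 393 bases (97.7%), and Chil3 and Chil4 were 95.4% identical. Of all windows of 50 bases in the Ly6c2 transcript, 32.6% were found unchanged in the Ly6c1 transcript, and 18.5% of those of Chil3 in Chil4. The levels of Ly6c2 and Chil3 are therefore uncertain to the extent that reads were assigned to a copy. The 3 ligand genes were only 69.1% to 69.7% identical to each other and shared 0 such windows.

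The 250 bases before the start of Ly6c2 (chr15:75111972-75112221) and Chil3 (chr3:106167565-106167814), both on the minus strand, are shown because these 2 genes were chosen by the same direction with LEN. They are RefSeq sequences on GRCm38.p6, in which 6 of the 8 genes had an entry, and capitals mark AGGAAGT or its reverse complement, the core bound by ETS factors such as PU.1 of myeloid cells.
Ly6c2: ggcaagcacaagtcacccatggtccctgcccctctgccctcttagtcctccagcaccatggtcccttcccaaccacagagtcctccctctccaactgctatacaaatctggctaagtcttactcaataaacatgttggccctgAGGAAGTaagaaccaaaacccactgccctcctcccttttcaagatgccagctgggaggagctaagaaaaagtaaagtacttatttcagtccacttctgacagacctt
Chil3: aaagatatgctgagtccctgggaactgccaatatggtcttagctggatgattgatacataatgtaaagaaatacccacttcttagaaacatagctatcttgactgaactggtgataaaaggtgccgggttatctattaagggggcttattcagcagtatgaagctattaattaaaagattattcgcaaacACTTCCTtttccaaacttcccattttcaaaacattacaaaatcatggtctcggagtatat
The 7 letters AGGAAGT, searched on both strands and counted from the gene start, lay at -60 before Chil3 and at -228 before Ccl12. Before Ly6c2 they formed the end of GAGGAAGT, at -108, and the window of a second annotated start of Ly6c2, not shown, overlaps this one and held the same match and 1 more. AGGAAGT was not found in the windows of Ccr2 and Vcan or in either window of Plac8. Of the near copies, Chil4 held it at -89 and 1 window of Ly6c1 held GAGGAAGT at -127. Other motifs were searched too: C/EBP, kappa B, STAT, HIF, the interferon response element ISRE and the TATA box. None of these matched before Ly6c2. Before Chil3, kappa B matched at -231 and STAT at -172 (45.8% and 7.02% of all windows held them). Over all 32807 promoter windows of this length, 7.69% held AGGAAGT and 2.44% the longer GAGGAAGT, which contains it.

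Depth is unknown, as TPM keeps none of it, so no counting error can be given for any value. Protein-coding genes took 37.1% to 60.5% of the TPM of a Base tumor, 40.5% to 62.3% of an NT tumor and 27.5% to 66.6% of a LEN tumor, and the lowest share belonged to replicate 4 of LEN in 4T1. For every tumor, the most similar other tumor was of the same model. Hepa 1-6 expressed Alb (1810 to 2400 TPM), B16-F10 Tyrp1 (2577 to 3472 TPM), KLN205 Krt5 (467 to 1345 TPM), and Renca and RAG Pax8 (17.6 to 65.7 TPM). Some defining markers were at or near 0 in models of their tissue. Alb reached at most 0.090 TPM in BNL 1ME A.7R.1. Cdx2 had a median of at most 0.13 TPM in CT26.WT and MC38, and the medians of Upk2 in MBT2 and of Sftpc in LL/2 and KLN205 were 0. In RNA of whole tumors, fewer cells of a type and less RNA per cell cannot be told apart.

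In untreated tumors at Base, the models differed in each of the 8 genes, as they did in most genes tested. Ly6c2 was highest in MC38, at 138 TPM ± 9.51 (SD, n = 2), and MBT2, at 82.4 ± 18.6 (SD, n = 3), and lowest in LL/2, at 4.33 ± 0.917. Chil3 stood out in Hepa 1-6, at 40.2 TPM ± 19.9 (SD, n = 3), ahead of MC38 at 7.63 ± 0.636 (n = 2), and it was 0.12 ± 0.113 in KLN205. By limma's F test of the differences among the 12 models, all 8 genes had an adjusted p under 0.05, from 5.44e-17 for Vcan to 9.15e-11 for Chil3 (93.6% of the 17542 genes tested did so, a share near that of the 8 genes).

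The order of the models was not the same for the markers. For Ly6c2, MC38, MBT2, Hepa 1-6 and CT26.WT came first, and only 3 of the 11 pairs of neighbours in the order were separated without overlap: MC38 from MBT2, MBT2 from Hepa 1-6, and CT26.WT from EMT6. The 7 models from RAG down to LL/2 had means of 4.33 to 9.13 TPM, and each of them overlapped its neighbours. For Chil3, Hepa 1-6 was separated from MC38, MC38 from B16-F10, MBT2 from 4T1, and RAG from CT26.WT (4 of 11 pairs). Plac8 was highest in MC38 (140.1 TPM ± 25.8), CT26.WT (118 ± 20.0) and Hepa 1-6 (108 ± 10.0), which overlapped in that order, and lowest in LL/2 (4.84 ± 0.406), separated from B16-F10.

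The receptor had another order. Ccr2 was highest in Renca, at 65.7 TPM ± 3.36, separated from the next model, and lowest in KLN205 (6.76 ± 1.904) and B16-F10 (5.99 ± 0.890), which overlapped. MC38 and MBT2, the leading models for Ly6c2, held the eighth and the fourth place for Ccr2. Only 2 of its 11 pairs of neighbours were separated.

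Among the ligands, Ccl2 was highest in MC38 (267 TPM ± 116, n = 2), MBT2 (187 ± 34.0) and LL/2 (186 ± 31.5), which could not be separated, and Ccl7 in MBT2 (169.9 ± 42.4). Ccl12 was highest in MBT2 (133 ± 24.9) and CT26.WT (101 ± 28.9), which overlapped. KLN205 had the lowest Ccl2 (7.04 ± 1.38) and Ccl7 (6.14 ± 1.44), and B16-F10 the lowest Ccl12 (7.30 ± 1.70). Vcan fell into a high set, with BNL 1ME A.7R.1 (94.8 ± 15.1), LL/2 (82.4 ± 4.77), EMT6 (64.1 ± 3.14) and MBT2 (58.1 ± 4.46), and a low set of 8 models, with means of 2.98 in RAG to 13.7 in KLN205. MBT2, the last of the high set, was separated from KLN205.

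The second comparison sets the untreated tumors of day 8 against the Base tumors, which came from other mice. Growth cannot be told apart here from any difference in collection or sequencing between these groups. The NT tumors of this comparison also entered the contrast by which Ly6c2 and Chil3 were chosen. A low NT value therefore lowers one difference and raises the other, and these 2 genes carry no test here. Their NT minus Base differences, as means over the 12 models on the log2(TPM + 1) scale, were -0.81 (SE 0.16) for Ly6c2 and -0.74 (SE 0.11) for Chil3. Of the 6 companions, 4 fell by limma (11.5% of the 17428 genes tested were called lower) and 0 rose (17.0% were called higher). These tests are not independent of the choice, since within groups the companions varied with Ly6c2, from r = 0.668 for Plac8 to 0.212 for Vcan. Plac8 fell by 0.60 (SE 0.11, adjusted p = 5.52e-05) and the receptor Ccr2 by 0.55 (SE 0.082, adjusted p = 1.78e-06). Of its ligands, Ccl7 fell by 0.50 (SE 0.11, adjusted p = 0.000339) and Ccl12 by 0.24 (SE 0.083, adjusted p = 0.0264). Ccl2 did not pass the test, with a difference of -0.12 (SE 0.085, adjusted p = 0.326), nor did Vcan, with -0.14 (SE 0.068, adjusted p = 0.127).

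The lower level was not seen in every model. NT was below Base in 10 of 12 models for Ly6c2, Chil3 and Plac8, in 9 for Ccr2 and Ccl7, in 8 for Ccl12, in 7 for Vcan and in 6 for Ccl2. In 25 of the 72 pairs of companion and model, every NT tumor lay below every Base tumor, against 13.7% of all pairs of gene and model, and in 6 every NT tumor lay above, against 15.8%. The NT tumors lay below in 4 models for Ly6c2 and in 6 for Chil3, and above in 0 for both. In Renca, every NT tumor lay below every Base tumor for all 8 genes. LL/2 and KLN205 were the models in which neither Ly6c2 nor Chil3 was lower in NT.
The difference itself varied between models by limma's F test for all 6 companions, with adjusted p of 2.54e-05 for Ccr2, 0.000745 for Vcan, 0.00137 for Ccl12, 0.00285 for Plac8, 0.00448 for Ccl2 and 0.0137 for Ccl7, and 66.5% of all genes tested did so. Without LL/2, Plac8 no longer passed (adjusted p = 0.179).
The call for Ccl12 rested on several models: it was lost without Hepa 1-6, Renca, LL/2, CT26.WT or B16-F10, with adjusted p of 0.0614 to 0.130, and without replicate 2 of MC38 at Base (0.0523). The call for Vcan went the other way: it was reached after both rescalings of the libraries (adjusted p = 0.0407 by the upper quartile and 0.0240 over protein-coding genes), and without BNL 1ME A.7R.1 (0.0404), LL/2 (0.0494) or replicate 1 of KLN205 at Base (0.0466). Over all genes, 2971 rose and 2002 fell, but 1421 rose and 3510 fell after rescaling by the upper quartile, and 1155 rose and 3870 fell after rescaling over protein-coding genes. With either rescaling 5 of the 6 companions were called lower and 0 higher.

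On day 8, Ly6c2 was higher with LEN than with NT by a mean of 1.02 on the log2(TPM + 1) scale (SE 0.15), and Chil3 by 0.90 (SE 0.12), the values for which they were chosen. The companions were not all alike: Plac8 was higher by 0.67 (SE 0.10) with 11 models in that direction, Ccl7 by 0.33 (SE 0.11) with 8, Ccl2 by 0.24 (SE 0.089) with 6, Vcan by 0.23 (SE 0.058) with 8 and Ccr2 by 0.17 (SE 0.094) with 6. Ccl12 had a mean difference of -0.11 (SE 0.099), with 6 models in each direction. By the threshold of limma, 6 of the 8 would be called higher and 0 lower, against 13.7% and 9.87% of the 17351 genes tested. These are 2371 and 1712 genes, which became 2288 and 3168 after rescaling by the upper quartile and 2506 and 2782 after rescaling over protein-coding genes. Since this contrast chose the genes, nothing is read from that count. Of all genes, 60 (0.346%) had a higher mean in each of the 12 models.

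**Figure D1:**
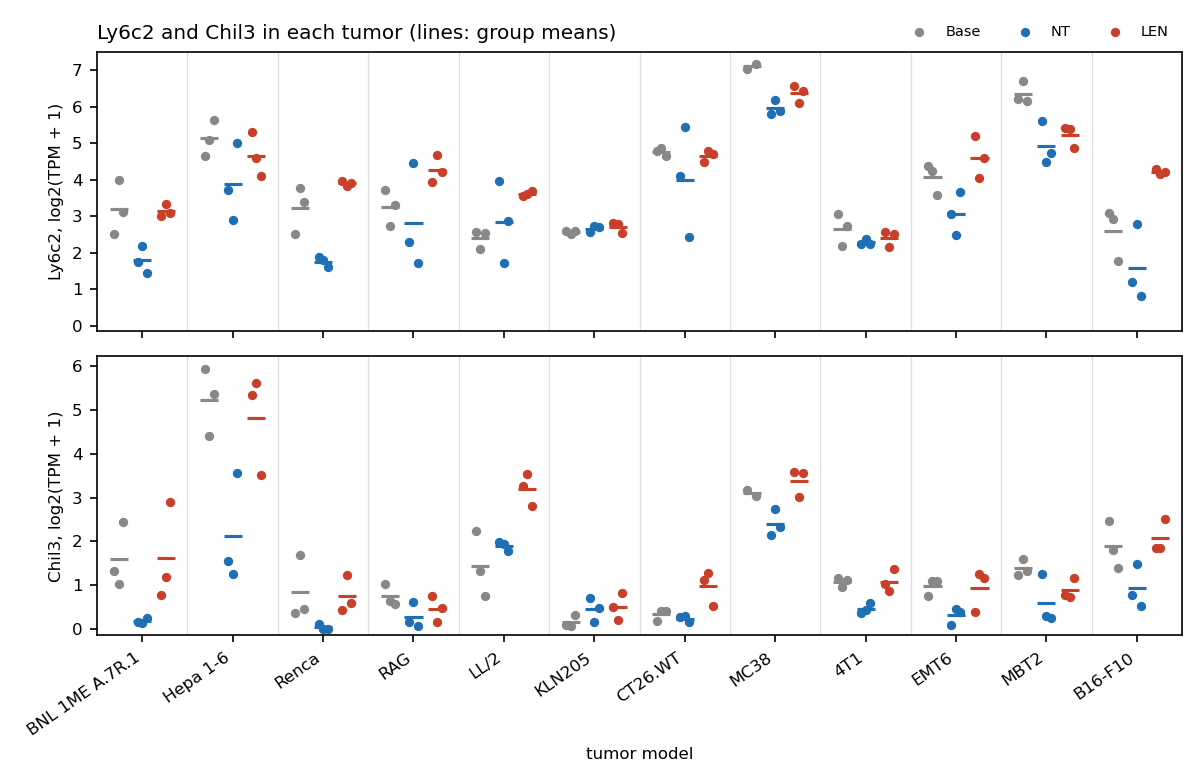
Level of Ly6c2 (top) and Chil3 (bottom) as log2(TPM + 1) in each tumor (points) by model, in Base (grey), NT (blue) and LEN (red) groups, with lines at the group means. The LEN mean lies above the NT mean in all 12 models, with the smallest gaps in KLN205, and NT lies below Base in 10 models for each gene.

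For Ly6c2, the tumors separated fully in 4 models. In B16-F10 the LEN tumors had 18.5, 16.99 and 17.5 TPM, the NT tumors 1.28, 5.86 and 0.74 and the Base tumors 7.43, 6.63 and 2.44. Renca had 14.6, 13.3 and 14.2 with LEN, 2.66, 2.47 and 2.03 with NT and 4.67, 12.6 and 9.48 at Base. BNL 1ME A.7R.1 had 7.1, 9.1 and 7.56 with LEN, 2.33, 3.55 and 1.71 with NT and 4.75, 15.02 and 7.63 at Base. In these models the 3 LEN tumors lay close together and above every NT tumor. EMT6 was the fourth, with 35.7, 15.4 and 22.99 under LEN, 7.31, 4.62 and 11.6 under NT and 19.7, 17.8 and 11.1 at Base. The differences were 2.63 in B16-F10, 2.15 in Renca, 1.54 in EMT6 and 1.36 in BNL 1ME A.7R.1 on the log2(TPM + 1) scale, each with an SE of 0.51 from the shared spread. In 3 of these models the share of TPM in protein-coding genes differed between the arms too, with 60.2% to 61.9% in LEN and 54.3% to 57.4% in NT for BNL 1ME A.7R.1, 62.8% to 66.6% against 57.2% to 61.0% for EMT6 and 59.1% to 60.6% against 54.6% to 58.4% for B16-F10. With levels rescaled over protein-coding genes, the mean difference of Ly6c2 over all 12 models was 1.08. That mean does not show how the difference changed in these 3 models.

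In RAG, LL/2, CT26.WT and Hepa 1-6, 1 NT tumor overlapped the LEN tumors or lay above them. RAG had 14.3, 24.4 and 17.5 TPM of Ly6c2 with LEN, 3.93, 21.1 and 2.28 with NT and 12.1, 5.7 and 8.96 at Base. LL/2 had 10.8, 11.1 and 11.9 with LEN, 14.8, 2.26 and 6.35 with NT and 4.91, 3.27 and 4.8 at Base. The NT tumors of RAG and LL/2 spread more widely than the LEN tumors. CT26.WT had 21.2, 26.8 and 25.1 with LEN, 16.1, 43.1 and 4.4 with NT and 26.8, 28.1 and 24.2 at Base. Hepa 1-6 had 38.7, 23.1 and 16.1 with LEN, 12.2, 6.48 and 31.4 with NT and 24.3, 33.2 and 49.2 at Base. The highest NT tumor of CT26.WT exceeded every other tumor of that model.

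MC38 and MBT2, with the highest levels, had differences of 0.41 and 0.30. MC38 had 94.7, 67.9 and 85.7 TPM of Ly6c2 with LEN, 55.4, 72.2 and 57.7 with NT and 131 and 145 at Base. MBT2 had 42.2, 41.4 and 28.2 with LEN, 47.5, 21.4 and 25.6 with NT and 73.1, 104 and 70.2 at Base. The highest NT tumor lay within the LEN tumors in MC38 and above all of them in MBT2. In both, all LEN tumors lay below all Base tumors. In 4T1 the tumors had 4.95, 3.43 and 4.67 with LEN, 3.72, 4.16 and 3.74 with NT and 7.38, 3.5 and 5.67 at Base. KLN205 had 6.07, 5.84 and 4.79 with LEN, 4.94, 5.58 and 5.49 with NT and 5.03, 4.72 and 4.99 at Base, and neither of these last models showed a difference beyond the spread of its tumors.

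Chil3 separated fully between LEN and NT in 7 models, and at much lower levels. LL/2 had 8.56, 10.5 and 5.95 TPM with LEN, 2.97, 2.82 and 2.41 with NT and 3.72, 1.51 and 0.69 at Base. MC38 had 10.98, 7.11 and 10.8 with LEN, 3.41, 5.66 and 4.01 with NT and 8.08 and 7.18 at Base. BNL 1ME A.7R.1 had 0.72, 1.27 and 6.45 with LEN, 0.12, 0.10 and 0.19 with NT and 1.48, 1.02 and 4.43 at Base. The NT tumors of BNL 1ME A.7R.1 lay below every tumor of the other groups of that model. B16-F10 had 2.59, 2.6 and 4.65 with LEN, 0.71, 1.79 and 0.44 with NT and 4.52, 2.49 and 1.6 at Base. 4T1 had 1.02, 0.82 and 1.57 with LEN, 0.28, 0.34 and 0.50 with NT and 1.24, 0.94 and 1.16 at Base. CT26.WT had 1.15, 1.43 and 0.44 with LEN, 0.20, 0.22 and 0.11 with NT and 0.13, 0.32 and 0.33 at Base. In CT26.WT and LL/2, every LEN tumor lay above every Base tumor as well. Renca had 0.34, 1.33 and 0.51 with LEN, 0.08, 0 and 0 with NT, where 2 tumors are listed at 0, and 0.29, 2.23 and 0.36 at Base.

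The highest Chil3 was in Hepa 1-6, with 39.6, 48.2 and 10.3 TPM under LEN, 1.93, 1.37 and 10.8 under NT and 60.00, 20.2 and 40.3 at Base. Its difference of 2.70 (SE 0.41) was the largest of the 12 models, although 1 LEN tumor lay just below the highest NT tumor. EMT6 had 0.31, 1.37 and 1.25 with LEN, 0.06, 0.37 and 0.31 with NT and 0.67, 1.13 and 1.12 at Base. MBT2 had 0.70, 0.65 and 1.23 with LEN, 1.4, 0.22 and 0.19 with NT and 1.35, 2.04 and 1.48 at Base. In EMT6 the lowest LEN tumor reached into the NT tumors, and in MBT2 a single NT tumor lay above all LEN tumors. RAG had 0.67, 0.12 and 0.39 with LEN, 0.11, 0.53 and 0.05 with NT and 1.02, 0.56 and 0.48 at Base. KLN205 had 0.41, 0.15 and 0.75 with LEN, 0.63, 0.11 and 0.39 with NT and 0.06, 0.05 and 0.25 at Base, and in these last models the groups overlapped. Many of these levels are under 1 TPM, where the scale of log2(TPM + 1) compresses differences: with a pseudocount of 0.1 in place of 1, the mean difference of Chil3 was 1.64.

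Plac8 followed the same direction in 11 models, and its tumors separated in 3. BNL 1ME A.7R.1 had 134, 103 and 104 TPM with LEN, 19.3, 19.7 and 17.1 with NT and 23.1, 54.9 and 44.3 at Base, a LEN level above both other groups. B16-F10 had 32.1, 32.98 and 35.2 with LEN, 2.06, 10.1 and 3.48 with NT and 17.7, 14.4 and 12.4 at Base. LL/2 had 20.4, 18.9 and 20.02 with LEN, 15.8, 7.69 and 13.2 with NT and 5.23, 4.88 and 4.42 at Base, so that in LL/2 Plac8 was higher in NT than at Base as well. In all 3 models every LEN tumor also exceeded every Base tumor. The difference of LEN minus NT was 2.53 in BNL 1ME A.7R.1, 2.69 in B16-F10 and 0.71 in LL/2 (SE 0.36), and 0.12 to 0.64 in the other 8 models with a positive value.

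The receptor and its ligands went both ways. Every LEN tumor was above every NT tumor for Ccr2 in BNL 1ME A.7R.1, MC38, MBT2 and B16-F10 and below in Renca and KLN205. B16-F10 had 11.7, 11.1 and 10.9 TPM of Ccr2 with LEN, 0.89, 2.42 and 0.61 with NT and 7.00, 5.31 and 5.67 at Base. Renca had 22.8, 18.96 and 20.5 with LEN, 27.9, 32.4 and 31.9 with NT and 62.1, 68.7 and 66.3 at Base. Renca therefore had a higher Ly6c2 and a lower Ccr2 with LEN than with NT, both without overlap. KLN205 had 4.09, 4.45 and 4.24 with LEN, 6.42, 6.47 and 8.41 with NT and 5.23, 8.89 and 6.15 at Base.
The lowest difference for Ccr2, -1.22 in 4T1 (SE 0.32), came from 20.7, 3.32 and 10.9 TPM with LEN and 19.5, 28.2 and 22.3 with NT. The value of 3.32 belongs to replicate 4, the tumor with 27.5% of its TPM in protein-coding genes, and without that tumor the difference was -0.58. The difference of Ccl12 in 4T1 went from -0.94 to -0.25 without it and that of Ccl2 from -0.090 to 0.47. That of Ccl7 went from -0.028 to 0.32, that of Plac8 from 0.12 to 0.56 and that of Ly6c2 from 0.12 to 0.25.

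Among the ligands, Ccl2 separated upward in Renca, LL/2 and B16-F10 and in no model downward. LL/2 had 231, 231 and 212 TPM of Ccl2 with LEN and 145, 98.05 and 160.0 with NT, and B16-F10 had 34.04, 27.8 and 25.4 with LEN and 6.9, 16.8 and 6.65 with NT. Ccl7 separated upward in Renca and B16-F10 and downward in MC38, where it was 55.4, 45.05 and 63.1 with LEN and 69.9, 79.8 and 76.1 with NT. Ccl12 was the gene with a mean difference below 0. It was lower in every LEN tumor than in every NT tumor of LL/2, CT26.WT, MC38 and MBT2, and higher in BNL 1ME A.7R.1 and B16-F10. CT26.WT had 44.4, 40.4 and 36.9 TPM of Ccl12 with LEN, 69.4, 53.6 and 74.1 with NT and 86.3, 82.3 and 134 at Base. MBT2 had 136, 151 and 88.5 with LEN, 247, 176 and 167 with NT and 122, 114 and 161 at Base. In LL/2, Ccl2 was thus higher and Ccl12 lower with LEN (11.8, 11.4 and 12.3) than with NT (31.3, 12.8 and 17.8), although both encode ligands of the same receptor.

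**Figure D2:**
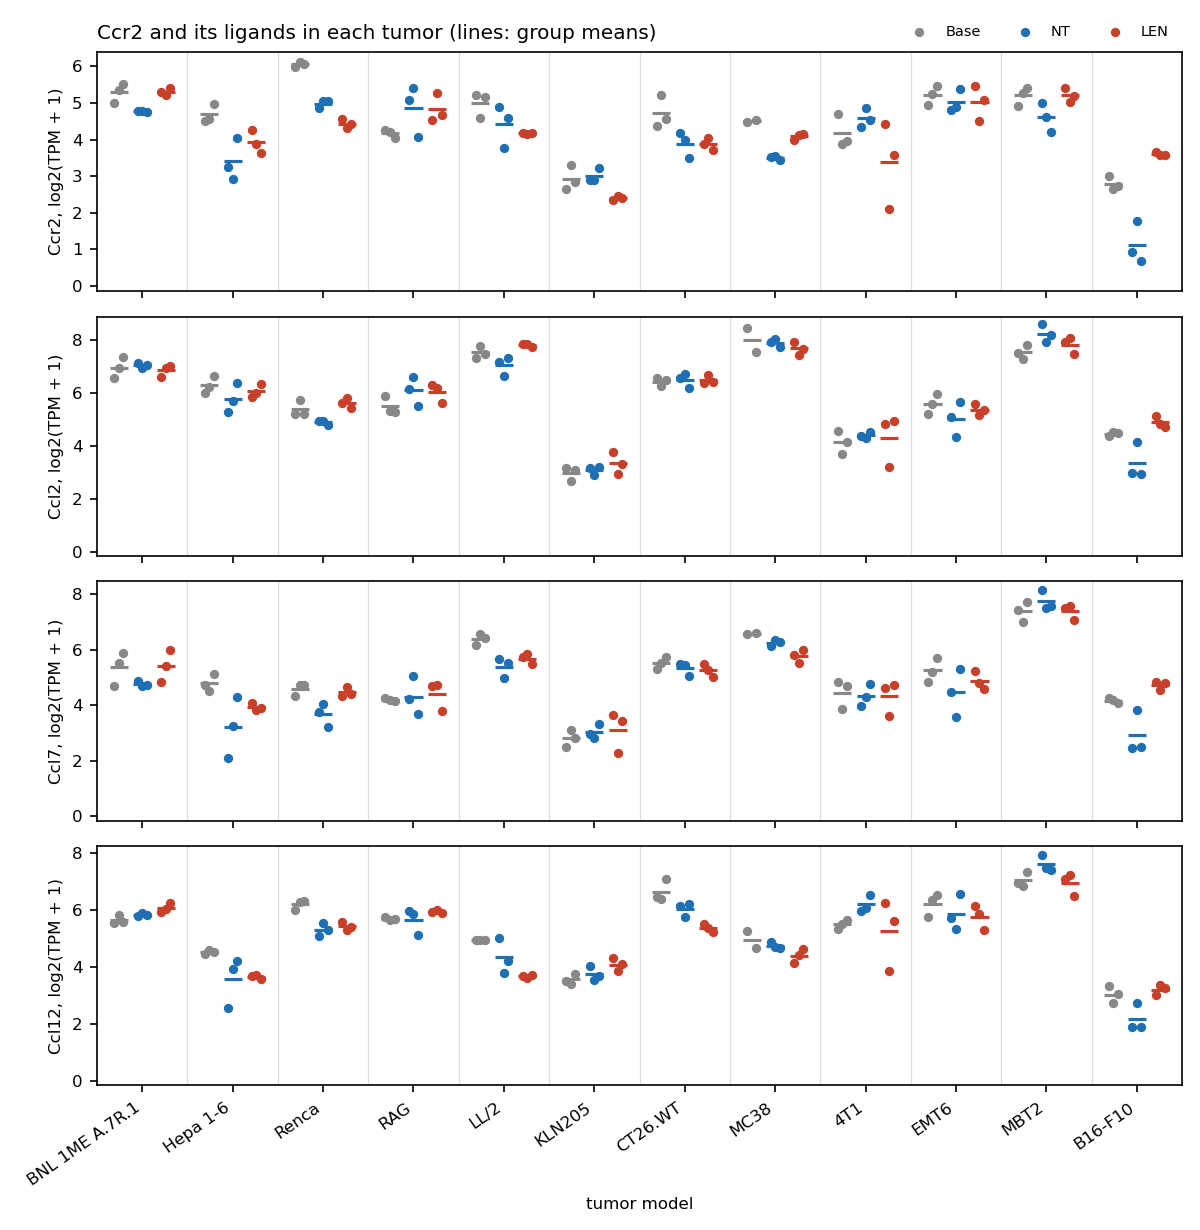
Level of Ccr2 and its ligands Ccl2, Ccl7 and Ccl12 as log2(TPM + 1) in each tumor (points) by model, in Base (grey), NT (blue) and LEN (red) groups, with lines at the group means. In B16-F10 all 3 LEN tumors lie above all 3 NT tumors for each of the 4 genes, whereas Ccl12 lies lower with LEN in LL/2, CT26.WT, MC38 and MBT2.

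Vcan differed by little within most models. LEN was above NT without overlap in Hepa 1-6, EMT6, MBT2 and B16-F10 and below in LL/2. B16-F10 had 5.82, 6.35 and 9.52 TPM with LEN, 1.38, 2.43 and 1.74 with NT and 5.95, 4.17 and 3.24 at Base. LL/2, where Vcan was abundant, had 86.3, 93.1 and 90.9 with LEN, 111, 113 and 106.8 with NT and 77.4, 83.02 and 86.9 at Base. The differences were 1.52 in B16-F10 and -0.29 in LL/2 (SE 0.20).

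**Figure D3:**
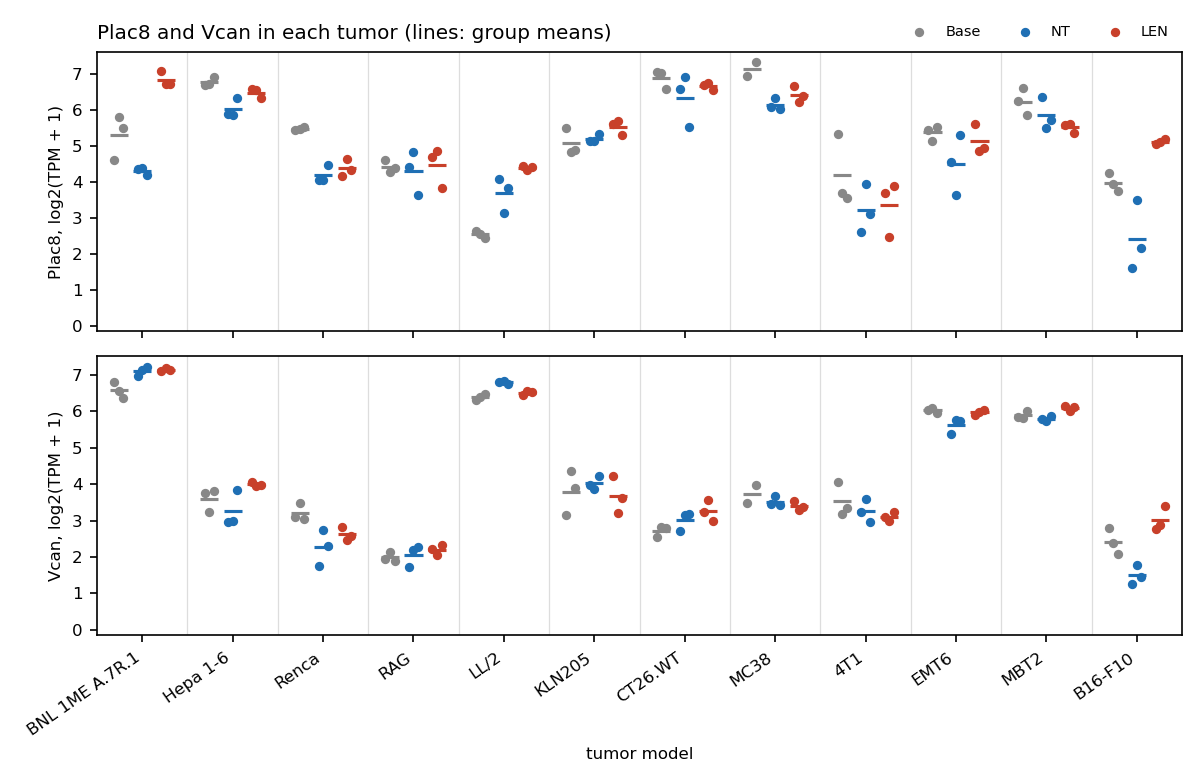
Level of Plac8 (top) and Vcan (bottom) as log2(TPM + 1) in each tumor (points) by model, in Base (grey), NT (blue) and LEN (red) groups, with lines at the group means. Plac8 is set apart with LEN in BNL 1ME A.7R.1 and B16-F10, and the Base means of Vcan run from 2.98 TPM in RAG to 94.8 in BNL 1ME A.7R.1.

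B16-F10 was the model with the highest LEN minus NT difference for 7 of the 8 genes, all but Chil3, against 11.2% of the 17351 genes tested. Without B16-F10, the mean difference over 11 models was 0.87 (SE 0.15) for Ly6c2, 0.88 (SE 0.12) for Chil3 and 0.49 (SE 0.10) for Plac8. It was 0.13 (SE 0.090) for Ccl2, 0.19 (SE 0.11) for Ccl7, 0.11 (SE 0.059) for Vcan, -0.037 (SE 0.097) for Ccr2 and -0.21 (SE 0.10) for Ccl12. The direction of Ccr2 thus turned without this model. Every LEN tumor was above every NT tumor in 18 of the 72 pairs of companion and model, and below in 8, beside 12.7% and 10.6% of all pairs of gene and model, and nothing is read from these counts either.

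**Figure D4:**
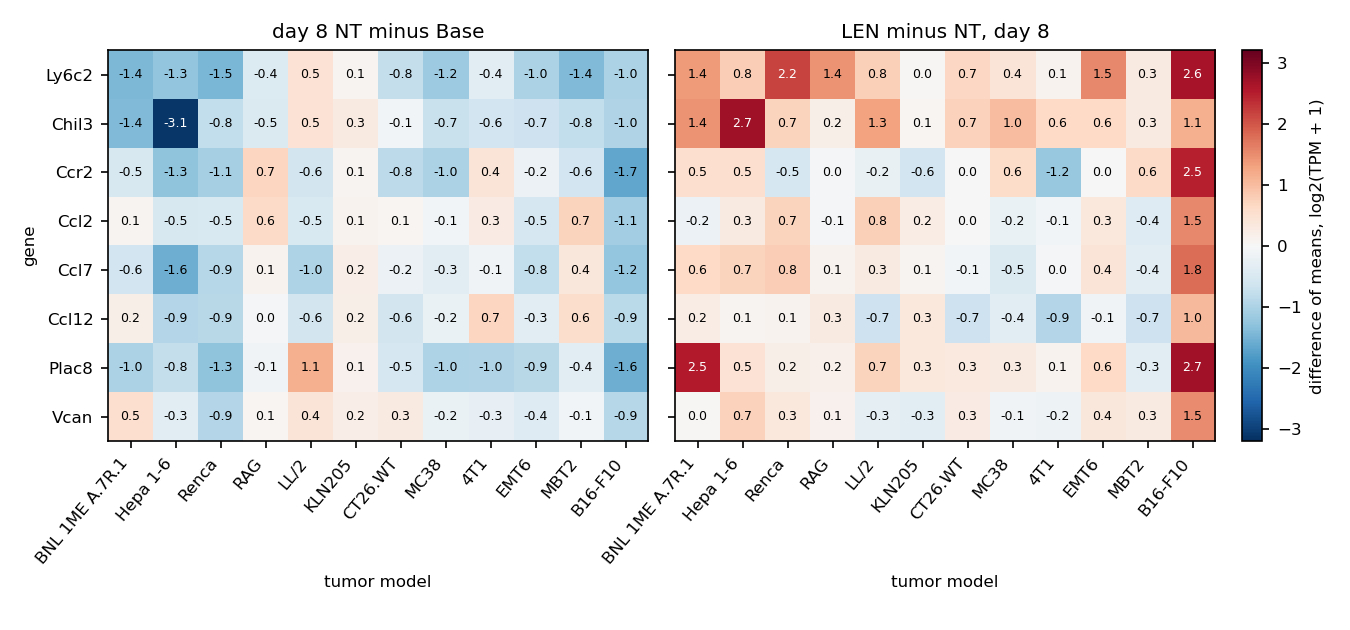
Difference of group means in log2(TPM + 1) for each gene (rows) and model (columns), NT minus Base on the left and LEN minus NT on the right, with red for positive and blue for negative values on one scale. The column of B16-F10 is negative on the left and positive on the right for all 8 genes, and the NT tumors are common to both sides.

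Set side by side, the mean differences of NT minus Base and LEN minus NT were -0.81 and 1.02 for Ly6c2, -0.74 and 0.90 for Chil3, and -0.60 and 0.67 for Plac8, with the NT tumors in both. For Ccr2 they were -0.55 and 0.17, for Ccl7 -0.50 and 0.33, and for Ccl12 -0.24 and -0.11. LEN tumors differed from Base tumors by a mean of 0.21 for Ly6c2, 0.16 for Chil3 and 0.072 for Plac8. The LEN mean was above the Base mean in 6, 7 and 5 of the 12 models for these genes. For Ccr2 the LEN mean was lower than the Base mean by a difference of -0.38, and it was above in 4 models. For Ccl12 the difference was -0.35, for Ccl7 -0.18, for Ccl2 0.13 and for Vcan 0.093. Over all tumors, Ly6c2 ranged from 2.44 to 145 TPM at Base (median 9.48), from 0.74 to 72.2 in NT (median 5.54) and from 3.43 to 94.7 in LEN (median 16.5). Chil3 ranged from 0.05 to 60.0 at Base (median 1.16), from 0 to 10.8 in NT (median 0.355) and from 0.12 to 48.2 in LEN (median 1.26).

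The genes also varied together from tumor to tumor within a group, though unequally. As deviations from the group means over all tumors of the 36 groups, Pearson's r between 2 of the 8 genes ran from 0.139 to 0.798 over the 28 pairs, with a median of 0.415. It was highest for Ccl2 and Ccl7, and 0.675 and 0.668 for Ccl12 with each of them. Ly6c2 varied with Plac8 (r = 0.668) and Ccr2 (0.615) more than with Chil3 (0.316). Tumors share their library scaling, so these values are a description. Over the means of the 12 Base models, r was 0.915 for Ccl2 and Ccl7, 0.823 for Ly6c2 and Plac8, 0.790 for Ccr2 and Ccl12, and 0.462 for Ly6c2 and Chil3. The mean Base level of Chil3 and its LEN minus NT difference had r = 0.854 over 12 models, among which Hepa 1-6 is far above the rest, and r was -0.617 to -0.300 for the other 7 genes.

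Among 17428 genes, those whose deviations over all tumors were most like Ly6c2 were H2-T24 (r = 0.834), Samhd1 (0.820), Irf7 (0.803), Themis2 (0.801) and Herc6 (0.801). Irf7 encodes a transcription factor of the type I interferon response and Samhd1 a nuclease that restricts viruses. For Chil3 the values were lower, with Fes (0.530), Smap2 (0.512), Gm38399 (0.510), Cyp4f18 (0.505) and Gapt (0.501). Chil3 held rank 1968 in the likeness to Ly6c2, Plac8 rank 185 and Ccr2 rank 294. Over the 12 Base means, Ly6c2 was most like Cd69 (0.955), an early activation antigen of lymphocytes, Slfn1 (0.949) and Ifi214 (0.941), and Chil3 was most like Etv3 (0.948), Gm6548 (0.931) and Fgl1 (0.927), the last of which is made by hepatocytes.

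The other genes of monocytes moved in part with LEN. Of 19 tested genes of a list of monocyte genes, 10 rose and 2 fell against NT by limma (13.7% and 9.87% of all genes), with a median difference of 0.25, beside -0.0019 over all genes. Hp, encoding haptoglobin, rose by 0.90 (SE 0.14, adjusted p = 1.89e-06), in 9 of 12 models. Clec4e, a receptor for mycobacterial glycolipid, rose by 0.68 and Cebpb, a transcription factor of myeloid cells, by 0.46, each in 12 models. Ms4a6c fell by 0.37 (SE 0.078, adjusted p = 0.000198), and Lyz2, the lysozyme of macrophages and monocytes, was near the threshold with -0.21 (SE 0.078, adjusted p = 0.0478). Without B16-F10 only 5 of these genes rose, and 1 in place of 2 fell with a pseudocount of 0.1, with no minimum of TPM, or without BNL 1ME A.7R.1, Renca, LL/2, KLN205, CT26.WT, MC38 or 4T1. From Base to NT, 2 of these genes rose and 5 fell, beside 17.0% and 11.5% of all genes. The counts became 0 and 8 after rescaling by the upper quartile and 0 and 9 over protein-coding genes. None rose without BNL 1ME A.7R.1, KLN205, 4T1 or EMT6 and 1 without Renca, RAG or MC38, and 9 fell without 4T1 and 8 without EMT6. Among the latter, Hp fell by 1.04 (adjusted p = 1.65e-06).

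Of 10 genes of patrolling monocytes, 2 rose and 2 fell with LEN, counts close to the shares of all genes (13.7% and 9.87%). Cx3cr1, the fractalkine receptor that marks them and some macrophages, fell by 0.97 (SE 0.092, adjusted p = 4.07e-12) in 11 of 12 models, after a rise from Base to NT by 0.47 (adjusted p = 0.000138). Eno3 rose by 0.18 (SE 0.057, adjusted p = 0.0158). The number that rose was 1 after rescaling by the upper quartile, with no minimum of TPM or without BNL 1ME A.7R.1, and 0 without B16-F10. The number that fell was 1 with no minimum, at a minimum of 5 TPM, or without Hepa 1-6, Renca, RAG, LL/2, CT26.WT, 4T1 or MBT2. Leaving out 1 tumor gave 1 to 4 that rose and 1 or 2 that fell.
Of the other chemokines and receptors near CCR2, 6 of 9 rose and 0 fell (13.7% and 9.87% of all genes), and 3 rose without Hepa 1-6 and 3 without B16-F10. Ccl4 and Ccl3, inflammatory chemokines of myeloid cells, rose by 0.68 (SE 0.088, adjusted p = 2.47e-08) and 0.66 (SE 0.11, adjusted p = 1.09e-05), each in 10 models. Ccl8, another ligand of CCR2, had a difference of 0.34 (adjusted p = 0.0841). From Base to NT, 7 of the 9 fell (11.5% of all genes did so). Among them, Ccl8 fell by 1.22 (adjusted p = 1.12e-07).

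Among growth factors and regulators of monocytes, 3 of 11 rose and 1 fell with LEN, beside 13.7% and 9.87% of all genes. Klf4, a factor needed for inflammatory monocytes, rose by 0.46 (SE 0.046, adjusted p = 2.06e-11) in 11 models, Irf8 by 0.25 (adjusted p = 0.0230) and Csf2rb by 0.24 (adjusted p = 0.00368). Csf1r, the receptor of macrophage colony-stimulating factor, fell by 0.45 (SE 0.063, adjusted p = 1.36e-07). Without B16-F10, 1 of these genes rose and 2 fell, so the counts of this list lie near the shares of all genes. Of 14 genes of alternatively activated macrophages, the list to which Chil3 belongs by its known regulation, 8 rose and 1 fell, and 4 rose without BNL 1ME A.7R.1 and 4 at a minimum of 5 TPM. Pdcd1lg2, encoding the PD-1 ligand PD-L2, rose by 0.56 (SE 0.11, adjusted p = 0.000131), in 12 of 12 models, and Mrc1, the mannose receptor, fell by 0.53 (SE 0.090, adjusted p = 8.59e-06). From Base to NT, 12 of 13 genes of that list fell (11.5% of all genes did so), with a median of -0.54, beside 0.013 over all genes. In the hyaluronan matrix around versican, 2 of 9 genes rose, Tnfaip6 by 0.37 and Cd44 by 0.23, and 2 fell, Adamts4 and Adamts9 (differences of -0.23 and -0.22), proteases that cut such proteoglycans. These counts too are close to the shares of all genes, and 1 rose at a minimum of 5 TPM.

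Markers of other cells of the tumor moved in the same contrast, in which 13.7% of all genes were called higher and 9.87% lower. Of 14 macrophage markers, 9 fell and 1 rose, with a summed level of 824 to 4519 TPM in NT (median 1814) and 414 to 5321 in LEN (median 1102). The complement genes C1qa, C1qb and C1qc had differences of -0.39, -0.38 and -0.44 and fell, while Gpnmb rose by 0.37, and 2 rose without Renca, RAG or 4T1. Of 7 neutrophil markers tested, 5 rose and 0 fell, S100a9 by 0.90 (adjusted p = 1.67e-05), and the summed level of 13 markers was 2.93 to 609 TPM in NT (median 56.9) and 14.6 to 1050.1 in LEN (median 107.1). Ly6g, Ngp, Camp, Elane, Mpo and Mmp8 did not reach a mean of 1 TPM. Of T cell markers, 7 of 9 rose, Cd3e by 0.47 (adjusted p = 0.000684), with a summed level of 3.32 to 206 TPM in NT (median 15.7) and 4.03 to 181 in LEN (median 28.3), and 3 rose without B16-F10. Of 6 markers of plasmacytoid dendritic cells, which also carry Ly6C and Plac8, 4 rose and 2 fell, Klk1 by 0.66 (adjusted p = 4.62e-09), with a summed level of 84.5 to 696 TPM in NT (median 251) and 92.2 to 647 in LEN (median 299), and 1 fell without Renca, RAG, LL/2, KLN205, MC38 or 4T1. The 7 endothelial markers tested fell, of which Cdh5 fell by 1.17 (adjusted p = 2.41e-21), and Tek did not reach a mean of 1 TPM. The summed level of all 8 was 37.2 to 173 TPM in NT (median 69.4) and 18.2 to 80.3 in LEN (median 36.1). All 5 red cell genes fell as well, of which Hbb-bs fell by 2.43 (adjusted p = 9.38e-17), with a summed level of 20.0 to 2781 TPM in NT (median 148) and 4.76 to 298 in LEN (median 36.1). Of 10 fibroblast markers, 1 rose, a count near the share of all genes, and 3 fell. Their summed level was 144 to 12969 TPM in NT (median 1303) and 222 to 10559 in LEN (median 1046). At a minimum of 5 TPM, which fewer genes passed, 1 T cell marker and 1 marker of plasmacytoid dendritic cells rose and 3 endothelial markers fell. None of the fibroblast markers rose without EMT6 or B16-F10, and 5 fell without Hepa 1-6 or B16-F10. Of 6 epithelial markers, which the cancer cells of some models express, 4 rose and 0 fell, with a median of 0.47, Cdh1 by 0.55 (adjusted p = 1.71e-10), and 1 rose without BNL 1ME A.7R.1. Their summed level was 0.56 to 2866 TPM in NT (median 237) and 0.76 to 3161 in LEN (median 386). In none of these lists was a marker at 0 in all tumors, and the part of these cells in the levels of Ly6c2, Chil3 and their companions was not tested.

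**Figure D5:**
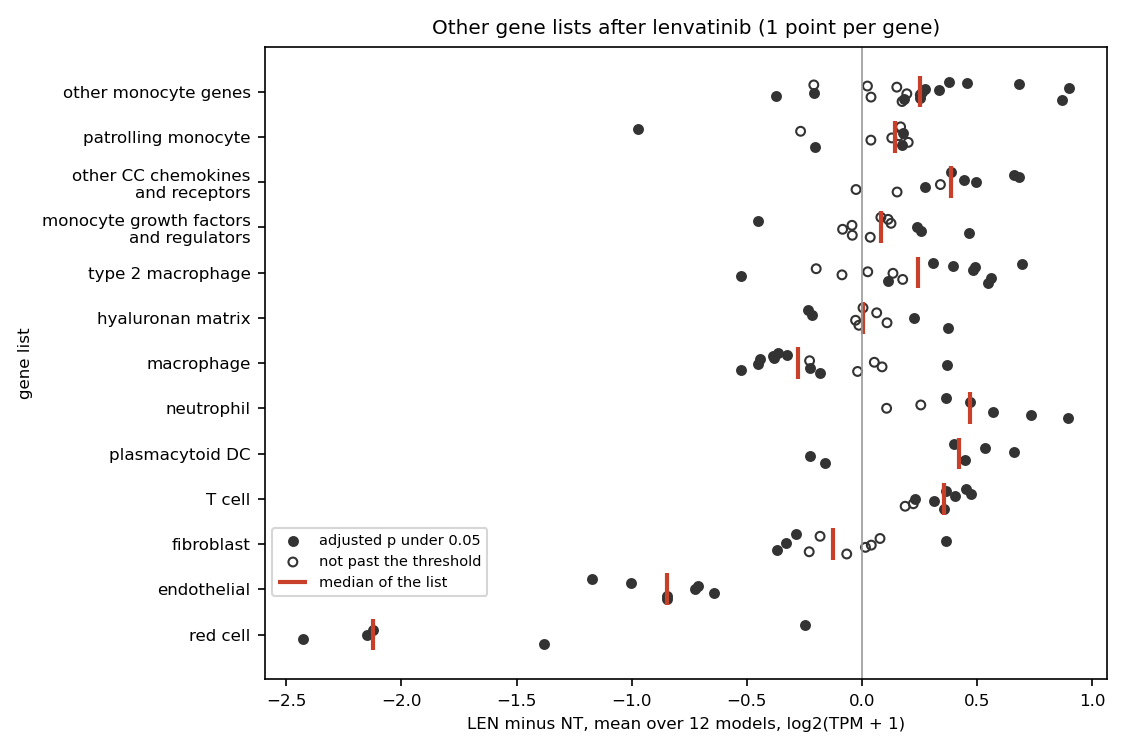
Mean LEN minus NT difference over 12 models in log2(TPM + 1) for each tested gene (points) of 13 lists, filled where the adjusted p is under 0.05, with a red line at the median of each list. The medians of the lists drawn run from -2.12 for red cell genes to 0.47 for neutrophil genes, with 0.25 for the other monocyte genes and -0.28 for macrophage genes.

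The near copies were looked at for themselves. Ly6c1, which is also made by endothelial cells, was higher with LEN by 0.69 (SE 0.13), in 10 of 12 models. In NT it was lower than at Base by 0.65. Its reads can be shared out with Ly6c2, which was chosen with these tumors, so no test of Ly6c1 is read. In KLN205 it had 1023 TPM ± 83.0 (SD, n = 3) at Base, 1366 ± 66.7 in NT and 1415 ± 125 in LEN, far above Ly6c2 in that model, and in B16-F10 it had 4.30 ± 0.252 in NT and 14.9 ± 5.03 in LEN. When Ly6c1 and Ly6c2 were summed, the LEN minus NT difference was 0.84 (SE 0.13) and that of NT minus Base was -0.75 (SE 0.13). The sum was higher with LEN in 11 of 12 models, not in all as Ly6c2 alone was, and in 4T1 its difference was -0.50. Chil4 was listed at 0 in 27 of 35 Base, 33 of 36 NT and 29 of 36 LEN tumors. It stood out in BNL 1ME A.7R.1, in which the 3 LEN tumors had 9.53, 63.7 and 242 TPM and the NT tumors 0 to 0.46, and in every other group it was at most 0.34 TPM. In the same LEN tumors Chil3 had 0.72 to 6.45 TPM, so that Chil4 was the more abundant copy there. With Chil3 and Chil4 summed, the difference of LEN minus NT was 1.24 (SE 0.15) and that of NT minus Base -0.73 (SE 0.11).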

How the data were processed

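RNA of whole subcutaneous tumors was sequenced in 35 Base, 36 NT and 36 LEN samples of 12 mouse models. The deposited values are TPM per gene, which the authors obtained from trimmed reads aligned to mm10 and quantified against Ensembl 88 genes, with Trimmomatic 0.36, STAR 2.5.2b and RSEM 1.2.31 according to the submitters' processing notes. TPM keeps no depth, so no counting error could be given, and every sample sums to the same total.

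Differences were fitted with limma 3.58.1 in R 4.3.3 (lmFit, contrasts, eBayes with a mean-variance trend) on log2(TPM + 1), a scale that understates changes of low genes, leaving out genes whose TPM averaged under 1 over the tumors fitted. LEN was set against NT (72 tumors) and NT against Base (71 tumors) as means of the 12 within-model differences, and the models were compared at Base (35 tumors). P-values were adjusted over all genes tested (Benjamini-Hochberg), and genes under 0.05 were called. No test of NT against Base is read for Ly6c2 and Chil3, since their choice used these NT tumors. The tests of their companions are not independent of that choice. Changes and calls are on that scale. The member genes and the gene lists were chosen with earlier results of these data known. The genes named are the members, for each list by default those with the largest and smallest called LEN minus NT difference, the near paralogs, and the genes most like Ly6c2 and Chil3 (the 5 highest r over tumors, the 3 highest over Base means). Alternatives were a pseudocount of 0.1, no minimum and a minimum of 5 TPM, rescaling by the upper quartile or over protein-coding genes, no trend, a replicate block, models fitted alone, each model or tumor left out and, chosen after seeing the data, paralogs summed and 4T1 without 1 LEN tumor. Values of some genes of the lists are not reported here. The code was tested on simulated data. Promoters came from RefSeq (GRCm38.p6), coding sequences from GENCODE M21, and tables, alignments and plots used Python 3.11.15, numpy 2.4.6, pandas 2.3.3, Biopython 1.88 and matplotlib 3.10.9.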

Additional observations from a re-analysis of the deposited data

Results flagged for a closer look

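The change from Base to NT differed between the 12 models for all 6 companions of Ly6c2 and Chil3 by limma's F test of 11 contrasts. The adjusted p was 2.54e-05 for Ccr2, 0.000745 for Vcan, 0.00137 for Ccl12, 0.00285 for Plac8, 0.00448 for Ccl2 and 0.0137 for Ccl7, and 66.5% of all genes tested passed the same test. Plac8 ran from -1.55 in B16-F10 to 1.13 in LL/2, and Ccr2 from -1.67 in B16-F10 to 0.69 in RAG.

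On day 8, some models separated LEN from NT in opposite directions for the same gene. All LEN tumors lay below all NT tumors in 2 models for Ccr2 (Renca and KLN205), in 4 for Ccl12 (LL/2, CT26.WT, MC38 and MBT2), in 1 for Ccl7 (MC38) and in 1 for Vcan (LL/2), while in other models all lay above. The difference between these models was not tested.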

How the results depend on the processing

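Of 1092 tests of the 6 companions in NT against Base under other settings, 1080 kept their direction and their side of the threshold, as did all 335 of the 8 genes at Base. The 743 values of LEN against NT were compared in direction and size, which 741 kept. Size counted as kept if the value moved by less than the residual SD of the gene, a wide margin. Without B16-F10, Ccl2 went from 0.24 to 0.13 and Vcan from 0.23 to 0.11 within it. In LEN against NT, leaving out B16-F10 took the number of member genes past the threshold from 6 to 3 and turned Ccr2 to -0.0373. Nothing is read from these changes. Leaving out 1 tumor gave 5 to 7 such genes. A pseudocount of 0.1 took Chil3 to 1.64. Of all genes, 3168 were lower with upper quartile rescaling and 2782 with rescaling over protein-coding genes, and 1440 were higher without BNL 1ME A.7R.1. For NT against Base, 951 genes were lower at a minimum of 5 TPM, a filter that Chil3 did not pass, 3510 with upper quartile rescaling and 3870 over protein-coding genes. With these rescalings 1421 and 1155 were higher, and 1765 were higher without KLN205 and 1950 without EMT6. Rescaling moved the median of all genes by less than 0.1. Leaving out 1 tumor gave 3 to 5 of the 6 companions lower in NT, 2515 to 3351 of all genes higher and 1823 to 2210 lower in NT, and 2200 to 3262 higher and 1562 to 2225 lower in LEN. Plac8 no longer differed detectably between models without LL/2 (adjusted p = 0.179). Summing paralogs turned no mean over the 12 models of Ly6c2 or Chil3, but the sum of Ly6c1 and Ly6c2 was higher with LEN in 11 models, with -0.50 in 4T1. The cause of these changes was not tested, apart from the fewer genes or tumors of a filter or omission.

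The replicate numbers name different mice. With the replicate number as a block within a model (correlation 0.0813 for LEN against NT and -0.0208 for NT against Base), 6 member genes were higher in LEN, 4 companions were lower in NT and the difference of Ly6c2 was 1.02. Over all genes 2444 were higher and 1817 lower in LEN, and 2910 higher and 1977 lower in NT. Same-numbered tumors deviated together with r over 0.1 in 0 of 20 and 1 of 25 pairs.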
